A study of Mus musculus with 21 samples.

Results

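The unfolded protein and ATF4 response genes described here were 32 genes taken by symbol from a table of 24623 gene symbols, and all 32 were found. Of these, 16 are Atf4 and the stress and amino acid genes tied to it, and 16 are genes of the endoplasmic reticulum (ER): its stress sensor and factor, chaperones, disulfide isomerases and degradation factors. RNA sequencing was done on 2 mouse pancreatic tumour cell clones, 6694c2 and 6419c5, implanted under the skin of C57BL/6 mice, left untreated and sorted back from the tumours after 3 weeks. Each clone had a parental line, named WT here since the titles give only the clone name for it, and 2 lines labelled EPHA2-KO, which the table letters KOA and KOB. There were 4 libraries per line in 6694c2 and 3 per line in 6419c5, 21 in all. All lines of a clone descend from a single tumour cell clone. The sources used here do not give the editing of EPHA2, whether a KO line is a single clone, or the age of the mice. They do not say that libraries came from separate animals. The spread was taken from libraries within a line, so p-values measure only the spread between these libraries. They do not measure the spread between lines, and each clone sets its 2 KO lines against a single parental line. The letters A and B mean nothing across clones.

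Cells that sense amino acid shortage or misfolded protein in the ER slow translation through phosphorylation of eIF2, and translation of ATF4, a transcription factor, then goes up. ATF4 protein is therefore not measured by its mRNA. ATF4 turns on genes for amino acid synthesis, amino acid import and feedback on the response. A separate arm runs through the sensor IRE1, encoded by Ern1, which splices the mRNA of the factor XBP1, and with ATF6 it drives ER chaperones and ER-associated degradation, the route by which misfolded proteins leave the ER. Secretory cells such as those of the pancreas lean heavily on this ER arm.

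The promoters of the members were searched for the known sequence elements of each arm. RefSeq windows on GRCm38.p6 (mm10), from 250 bases before to 50 bases after the transcription start, were matched for 29 of the 32 members. The C/EBP-ATF response element (CARE, TGATGNAAN, either strand), which ATF4 binds with a partner, was found in 6 of 15 ATF4-list genes (Trib3, Nupr1, Chac1, Asns, Slc7a11 and Vldlr), in 1 of 14 ER genes (Herpud1), and in 4.5% of all 27025 genes with a window. The ER stress response element (ERSE, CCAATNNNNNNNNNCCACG, either strand), which ATF6 binds with NF-Y, was in 0 of 15 ATF4-list genes, in 6 of 14 ER genes (Hspa5, Hsp90b1, Calr, Dnajc3, Pdia6 and Creld2), and in 0.137% of all genes. A core of the XBP1 element (TGACGTGG) was in no member window and in 0.714% of all genes. The stretches below carry the elements in capitals, 5′ to 3′ on the strand of the gene, to show the element of the amino acid arm beside that of the chaperone arm. A match is a run of letters and not a measured binding site.
Slc7a11, chr3:50443638-50443763, minus strand, CARE on each strand: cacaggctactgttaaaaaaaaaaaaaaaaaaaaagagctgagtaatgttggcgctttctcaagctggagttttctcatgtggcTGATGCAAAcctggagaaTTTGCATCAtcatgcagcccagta
Chac1, chr2:119351033-119351122, plus strand, CARE reversed: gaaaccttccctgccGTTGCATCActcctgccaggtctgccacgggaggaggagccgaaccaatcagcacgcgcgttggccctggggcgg
Calr, chr8:84847019-84847108, minus strand, ERSE reversed: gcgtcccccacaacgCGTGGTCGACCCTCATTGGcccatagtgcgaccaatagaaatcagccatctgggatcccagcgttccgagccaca
Hsp90b1, chr10:86705518-86705671, minus strand, ERSE on each strand: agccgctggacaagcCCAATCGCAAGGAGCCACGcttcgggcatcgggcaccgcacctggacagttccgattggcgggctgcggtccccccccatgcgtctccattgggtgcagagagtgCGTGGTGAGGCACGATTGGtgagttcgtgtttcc
Pdia6, chr12:17266439-17266528, plus strand, ERSE forward: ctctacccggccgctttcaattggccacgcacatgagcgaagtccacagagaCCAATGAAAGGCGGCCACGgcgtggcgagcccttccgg
Creld2, chr15:88819496-88819585, plus strand, ERSE reversed: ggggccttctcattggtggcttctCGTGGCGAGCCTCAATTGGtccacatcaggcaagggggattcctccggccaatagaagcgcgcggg

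Values are in TPM, a relative measure of transcript abundance per length, which sums to the same total in every library and keeps no record of depth, and changes are log2 fold changes of TPM + 1 with standard errors from limma. A gene counts as called where its adjusted p is under 0.05. The KO effect of a clone is the average of its 2 KO lines minus WT, and the comparisons of KOA with WT and of KOB with WT in a clone share the same WT libraries. Epha2 itself fell in the KO lines of 6694c2, from 245 ± 5.11 TPM (SD, n = 4) in WT to 115 ± 18.3 in KOA and 97.8 ± 11.4 in KOB. In 6419c5 it stood at 176 ± 13.5 (SD, n = 3) in WT, 150.5 ± 6.05 in KOA and 197 ± 25.7 in KOB. That KO effect was -0.03 ± 0.10 (adjusted p = 0.819), and the mRNA level does not check the labels there. Macrophage markers summed to 891 to 2419 TPM in 6419c5 WT, 216 to 341 TPM in KOB and 191 to 4163 TPM in KOA, with all 10 markers detected. In 4 libraries, 6694c2 WT 2, 6419c5 WT 2 and 3 and 6419c5 KOA 2, the sum was 1317 TPM or more, and these are called the libraries of high macrophage markers. Leaving them out leaves 6419c5 WT with library 1 alone, whose spread is then taken from the other lines. Fibroblast and pericyte markers summed to 184 to 274 TPM in 6694c2 WT, 184 to 697 TPM in KOA and 52.7 to 89.5 TPM in KOB. In 6419c5 these markers summed to 926 to 1856 TPM in WT, 484 to 591 TPM in KOA and 1206 to 1767 TPM in KOB. Their part in the results was not tested. Among other ER-rich cell types, the plasma and B cell markers summed to at most 3.98 TPM, and their part in the results was not tested. The 8 acinar markers summed to 58.4 to 61.8 TPM in 6694c2 WT, 24.4 to 55.7 TPM in KOA and 75.2 to 116 TPM in KOB. In 6419c5 they summed to 22.1 to 24.3 TPM in WT, 4.82 to 9.14 TPM in KOA and 2.24 to 3.27 TPM in KOB. Of these 8, 6 were under 1 TPM in every library (Cpa1, Cpb1, Cela2a, Ctrb1, Pnlip and Amy2a5), with Cpa1 and Amy2a5 at 0. Only Prss2 and Cela1 reached 1 TPM in any library, so the sums do not follow the list as a whole. The part of the list in the results was not tested. In such sorted bulk samples, fewer cells of a type and less RNA per cell cannot be told apart.

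Members of both lists rose and fell in each clone. In 6694c2, 7 of 32 members rose and 5 fell on the mean of the KO lines, beside 23.9% of all 14337 genes tested that rose and 13.5% that fell, shares near those of the members. In 6419c5, 12 rose and 4 fell, beside 26.5% and 15%. The median log2 fold change of the 16 ATF4-list genes was 0.04 in 6694c2 and 0.39 in 6419c5. That of the 16 ER genes was -0.06 and 0.19, and that of all genes was 0.07 and 0.08. By line, the ATF4-list median was 0.42 in 6694c2 KOA and -0.25 in KOB, and 0.08 in 6419c5 KOA and 0.60 in KOB. The ER medians were 0.04, -0.16, 0.12 and 0.20 in the same order, and those of all genes 0.08, 0.07, 0.04 and 0.10. With the KO line as a random effect, limma called 0 of 32 members in either clone, while 4 members in each clone had an unadjusted p under 0.05 (12.5%, against 10.6% of all genes in 6694c2 and 17.2% in 6419c5). The same fit called 130 of all 14337 genes in 6694c2 (0.907%) and 589 in 6419c5 (4.11%). With median-of-ratios size factors in place of TPM scaling the 6694c2 split became 6 higher and 10 lower, beside 2716 and 3021 of all genes. With quantile normalization the 6419c5 split became 9 and 6, beside 3217 and 3284 of all genes. Under TPM scaling the counts over all genes were 3429 and 1932 in 6694c2 and 3796 and 2146 in 6419c5.

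Line by line, more members were called against WT in KOB than in KOA in each clone, as were more genes overall. In 6694c2 KOA, 8 members rose and 2 fell, beside 15.2% and 7.56% of all genes, and in 6694c2 KOB 8 rose and 11 fell, beside 29.2% and 19.4%. In 6419c5 KOA, 4 rose and 3 fell, beside 19.1% and 12.7%, and in 6419c5 KOB 15 rose and 2 fell, beside 28.5% and 14.7%. Of the ATF4 list, 5 rose and 2 fell in 6694c2 KOA, 3 rose and 7 fell in 6694c2 KOB, 0 rose and 1 fell in 6419c5 KOA, and 9 rose and 1 fell in 6419c5 KOB. Of the ER list, the counts were 3 and 0, 5 and 4, 4 and 2, and 6 and 1 in the same order. Size factors by median of ratios gave 7 higher and 5 lower in 6694c2 KOA, 7 and 17 in 6694c2 KOB, 4 and 5 in 6419c5 KOA and 13 and 4 in 6419c5 KOB. Of all 14337 genes, that scaling called 1714 higher and 2109 lower in 6694c2 KOA and 3647 and 3659 in 6694c2 KOB. In 6419c5 it called 2554 and 2381 of all genes in KOA and 3247 and 3357 in KOB. Quantile normalization gave 4 and 6 members in 6419c5 KOA, beside 2607 and 2555 of all genes. In 6419c5 KOB it gave 13 and 5 members, beside 3331 and 3487. The 6419c5 KOB values carry a median over all genes of 0.10, which either scaling lowers by 0.11.

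**Figure D1:**
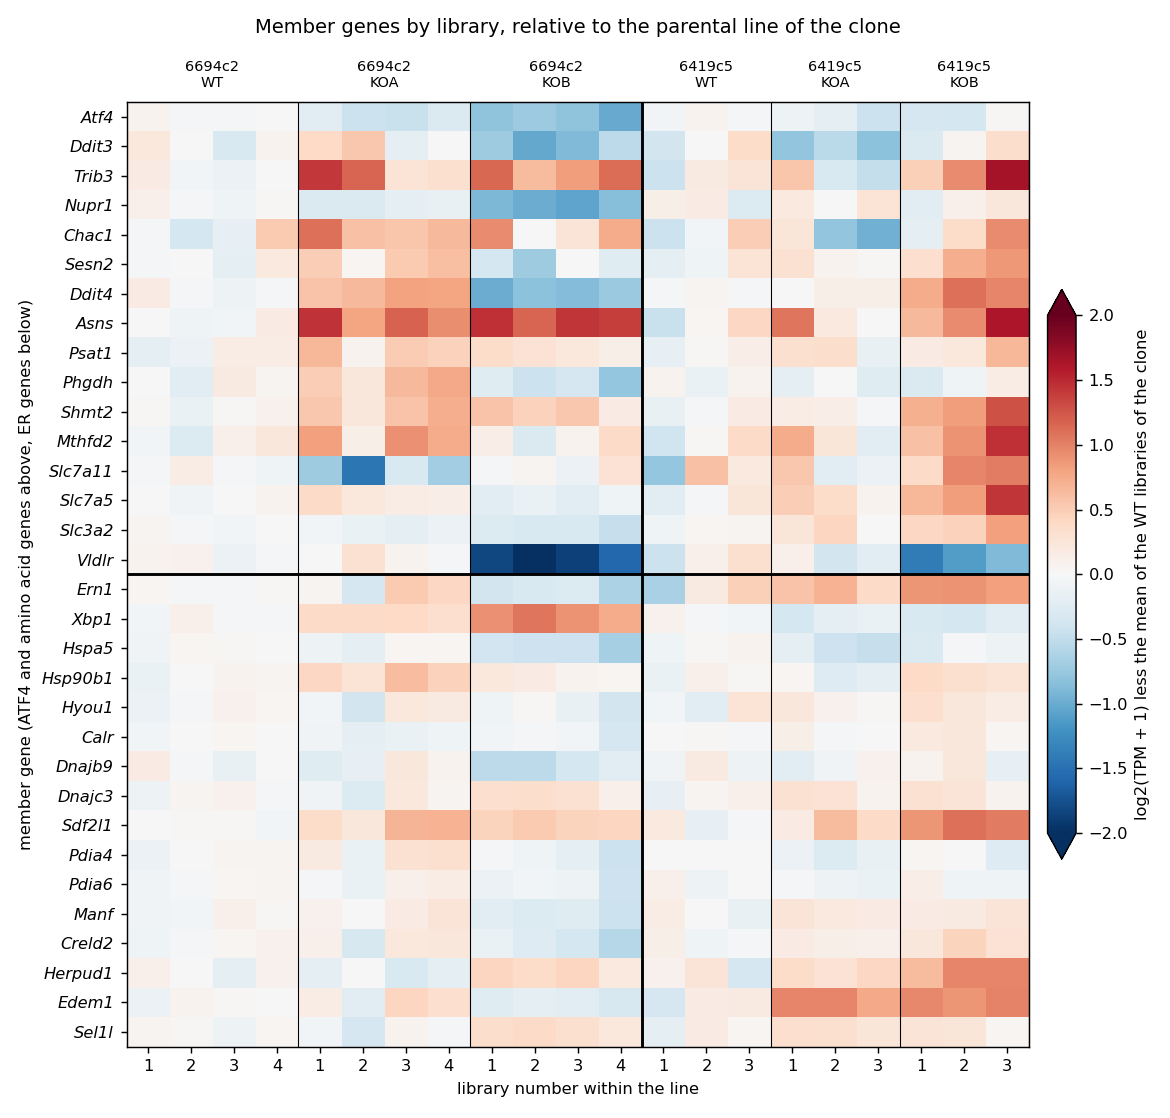
Each cell is log2(TPM + 1) of a member gene (rows) in a library (columns), less the mean of the WT libraries of its clone; red is higher, blue lower, and values past 2 in either direction take the end colour. Asns is red in all 8 KO libraries of 6694c2, Vldlr is blue in the KOB libraries of both clones, and Ddit4 is red in 6694c2 KOA and blue in 6694c2 KOB.

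Atf4 mRNA (chr15:80255184-80257545, mm10), which encodes the factor at the centre of the response, was lower in the KO lines of 6694c2. It stood at 326, 302, 302 and 314 TPM in the WT libraries, 266, 232, 228 and 255 TPM in KOA, and 178, 188, 177 and 155 TPM in KOB. The 3 lines did not overlap, and KOA had a log2 fold change of -0.34 ± 0.09 (adjusted p = 0.00852) and KOB of -0.83 ± 0.09 (adjusted p = 3.62e-07). In 6419c5, WT stood at 198, 215 and 201 TPM, KOA at 190.1, 179 and 152 TPM and KOB at 161, 160.2 and 208 TPM, the last within the WT range. That KO effect of -0.23 ± 0.09 was called at adjusted p = 0.0393. It was lost when any of 6 single libraries was left out, with adjusted p of 0.0585, 0.142 and 0.0736 without WT 1, 2 and 3, 0.0906 without KOA 3, and 0.0818 and 0.0844 without KOB 1 and 2. The call was also lost in 5 of 12 other settings of the fit. By line, neither KOA (-0.24, adjusted p = 0.0756) nor KOB (-0.22, adjusted p = 0.0808) of 6419c5 was called. Under median-of-ratios scaling both were called lower (-0.29, adjusted p = 0.0498, and -0.35, adjusted p = 0.0152). Quantile normalization also called both lower (-0.33, adjusted p = 0.0125, and -0.40, adjusted p = 0.00257). Atf4 in 6694c2 KOA lost its call without KOA libraries 3 and 4 (adjusted p = 0.0573).

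The factors downstream of ATF4 did not follow its mRNA as a group. Trib3, a pseudokinase that feeds back on ATF4, rose in 6694c2 with a KO effect of 0.86 ± 0.25 (adjusted p = 0.0103), from 9.89, 8.32, 7.96 and 8.69 TPM in WT to 24.8, 20.8, 10.7 and 11.05 TPM in KOA and 20.5, 13.9, 16.3 and 19.9 TPM in KOB. Every KO library was above every WT library, and KOA libraries 1 and 2 stood well above 3 and 4. By line, KOB was called (0.93, adjusted p = 0.0114) and KOA was not (0.79, adjusted p = 0.0533). KOA was called with a filter of 5 TPM (adjusted p = 0.0482) and in a fit on the 6694c2 libraries alone (adjusted p = 0.0315). In 6419c5 KOB, Trib3 stood at 16.5, 23.2 and 38.9 TPM against 8.31, 13.3 and 14.1 TPM in WT. The log2 fold change of 1.03 ± 0.33 (adjusted p = 0.0177) was 0.81 without WT 1 (adjusted p = 0.0836) and 0.71 without KOB 3 (adjusted p = 0.112). Ddit3, the proapoptotic factor CHOP, fell in 6694c2 KOB, from 65.8, 57.2, 46.0 and 59.8 TPM to 34.3, 27.3, 30.3 and 39.1 TPM (log2 fold change -0.79 ± 0.18, adjusted p = 0.00137). It also fell in 6419c5 KOA, from 46.6, 60.0 and 77.5 TPM to 34.2, 41.2 and 33.8 TPM (-0.71 ± 0.21, adjusted p = 0.013). That call was lost without WT 3 (-0.53, adjusted p = 0.0808) or without the 4 libraries of high macrophage markers (-0.45, adjusted p = 0.332). Reads from Ddit3 may not separate from the overlapping genes Mars1 and Mbd6, since strandedness of the counting is not given in the sources used here.

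Nupr1, a small chromatin-associated stress protein, fell in 6694c2 KOB with no overlap, from 533, 487, 470.5 and 509 TPM in WT to 267, 251, 239 and 278 TPM (log2 fold change -0.95 ± 0.10, adjusted p = 2.93e-07). KOA libraries lay between, at 409 to 452 TPM. Its 6419c5 libraries overlapped (418 to 564 TPM in WT, 506 to 611 TPM in KOA and 438 to 588 TPM in KOB). Chac1, which degrades glutathione, was not called in any KO comparison in the fit over all libraries. It stood at 2.74 to 5.88 TPM in 6694c2 WT, at 6.03 to 9.23 TPM in KOA, above every WT library, and at 3.79 to 8.13 TPM in KOB. With the clone's own libraries, the KOA value of 0.72 and the KO effect of 0.61 were called (adjusted p = 0.042 and 0.0322). The KO effect was also called without WT 4, KOB 2 or 6419c5 KOA 1 (0.61 to 0.78, adjusted p from 0.0384 to 0.0498). Sesn2, a leucine sensor that restrains mTORC1, was called only in 6419c5 KOB among the KO comparisons with WT, where it stood at 15.9, 21.2 and 23.3 TPM against 10.7, 11.6 and 15.2 TPM in WT (0.64 ± 0.18, adjusted p = 0.00916, and 0.0503 without KOB 3). Under median-of-ratios scaling it was also called in 6694c2 KOB (-0.40, adjusted p = 0.0391).

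Ddit4, the mTORC1 inhibitor REDD1, was higher in KOA and lower in KOB of 6694c2. It rose in KOA, from 471, 410.5, 391 and 411 TPM in WT to 625, 655, 733 and 726 TPM, and fell in KOB, to 211, 237, 231 and 250.2 TPM. The log2 fold changes were 0.70 ± 0.08 (adjusted p = 5.17e-06) and -0.85 ± 0.08 (adjusted p = 8.37e-08), and no library of a line overlapped another line. In 6419c5, WT and KOA libraries stood at 209.9 to 223 TPM and 216 to 234 TPM, while KOB stood at 359, 460 and 424 TPM, a log2 fold change of 0.94 ± 0.09 (adjusted p = 3.32e-07).

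Of the amino acid synthesis genes, Asns had the largest fold changes against WT. Asns, asparagine synthetase (chr6:7675165-7693209), rose in 6694c2 from 22.2, 20.9, 21.6 and 25.1 TPM in WT to 62.4, 39.2, 52.0 and 43.5 TPM in KOA and 63.7, 51.6, 62.1 and 60.0 TPM in KOB. The log2 fold changes of 1.08 ± 0.23 (adjusted p = 0.00238) and 1.36 ± 0.23 (adjusted p = 7.22e-05) were both called, and every KO library was above every WT library. In 6419c5, WT stood at 29.4, 41.2 and 53.8 TPM, KOA at 85.6, 46.3 and 40.2 TPM and KOB at 64.1, 78.4 and 126 TPM. KOB was above WT (1.07 ± 0.26, adjusted p = 0.00318) and KOA overlapped it. The KO effect of 6419c5, 0.75 ± 0.23 (adjusted p = 0.0137), was 0.53 without WT 1 (adjusted p = 0.108). Asns thus rose while Atf4 mRNA fell in each 6694c2 line.

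In serine synthesis, Phgdh, which catalyses the first step, rose in 6694c2 KOA, at 148, 122, 164 and 176 TPM against 103, 89.2, 118 and 109 TPM in WT (0.53 ± 0.13, adjusted p = 0.00632). It fell in KOB, at 87.8, 76.8, 82.7 and 60.8 TPM (-0.44 ± 0.13, adjusted p = 0.00785). The KOA call was lost without KOA libraries 3 and 4 (0.36, adjusted p = 0.116). Phgdh stood at 257 to 349.5 TPM in all 9 libraries of 6419c5 and was not called there. Psat1, the next enzyme, had a 6694c2 KO effect of 0.33 ± 0.12 (adjusted p = 0.0382), with WT at 49.3 to 62.2 TPM, KOA at 58.6 to 89.7 TPM and KOB at 61.0 to 72.3 TPM. That call was lost when WT 1 or 2, KOA 1, 3 or 4, or KOB 1 or 2 was left out (0.27 to 0.33, adjusted p from 0.0543 to 0.136).

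The mitochondrial folate enzymes Shmt2 and Mthfd2 pass the carbon of serine on. Shmt2 rose in both 6694c2 lines, at 69.9, 56.2, 71.4 and 79.7 TPM in KOA and 71.3, 66.6, 69.7 and 53.8 TPM in KOB against 48.5, 43.5, 48.8 and 50.9 TPM in WT, with no overlap. The log2 fold changes were 0.51 ± 0.12 (adjusted p = 0.00531) and 0.43 ± 0.12 (adjusted p = 0.00635), the first lost without KOA libraries 3 and 4 (adjusted p = 0.0864). In 6419c5 KOB it stood at 122, 132 and 179 TPM against 66.6, 72.9 and 82.6 TPM in WT, a log2 fold change of 0.94 ± 0.14 (adjusted p = 3.84e-05), and KOA stood at 72.3 to 82.3 TPM, within WT. Mthfd2 rose in 6419c5 KOB (0.98 ± 0.27, adjusted p = 0.00692), at 39.4, 49.3 and 73.8 TPM against 19.5, 26.3 and 34.2 TPM. In 6694c2 KOA it was 25.2 to 44.8 TPM against 19.04 to 27.4 TPM in WT, not called (0.65, adjusted p = 0.0533). That KOA value was called with a filter of 5 TPM (adjusted p = 0.0484) and with the clone's own libraries (adjusted p = 0.0258). Without KOA 2 it was 0.83 and called (adjusted p = 0.0141). Shmt2 overlaps Ndufa4l2 in the annotation.

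All 3 amino acid transporter genes rose in 6419c5 KOB, and none was called higher in 6694c2 in the fit over all libraries. Slc7a5, the large neutral amino acid carrier LAT1, stood at 65.8, 75.9 and 91.4 TPM in 6419c5 WT, 108, 99.9 and 81.2 TPM in KOA and 122, 138 and 208 TPM in KOB, the last a log2 fold change of 0.97 ± 0.15 (adjusted p = 5.7e-05). Slc3a2, its shared heavy chain, stood at 125, 137 and 138 TPM in 6419c5 WT, 177, 185 and 237 TPM in KOB (0.57 ± 0.10, adjusted p = 0.000197) and 158, 179 and 134 TPM in KOA. In 6694c2, Slc7a5 stood at 88.5 to 97.4 TPM in WT, 102 to 122 TPM in KOA and 79.6 to 87.2 TPM in KOB, so that KOA lay above and KOB below every WT library. Those values, 0.22 (adjusted p = 0.24) and -0.16 (adjusted p = 0.324), were called only in the fit on the clone's own libraries (adjusted p = 0.0215 and 0.0439). Slc3a2 fell in 6694c2 KOB, from 166 to 179 TPM in WT to 125 to 142 TPM (-0.34 ± 0.09, adjusted p = 0.00351). Slc7a11, the cystine importer, fell in 6694c2 KOA, from 9.36, 10.6, 9.27 and 8.86 TPM to 5.40, 2.85, 7.48 and 5.50 TPM (-0.79 ± 0.26, adjusted p = 0.0371). The call was lost when any WT library or KOA 1, 2 or 4 was left out (-0.57 to -0.82, adjusted p from 0.0568 to 0.105). In 6419c5 KOB it stood at 6.75, 10.7 and 11.1 TPM against 2.48, 7.92 and 5.81 TPM in WT (0.79 ± 0.30, adjusted p = 0.0423). That value was 0.40 without WT 1 (adjusted p = 0.261), and with the 4 libraries of high macrophage markers left out it was 1.57 (adjusted p = 0.0044). The KO effect of 6419c5, 0.43 (adjusted p = 0.206), was then 1.28 (adjusted p = 0.0128). The call was also lost without WT 3 or KOB 2 or 3, or 6694c2 WT 1, 3 or 4 or KOB 1 (0.68 to 0.89, adjusted p from 0.0501 to 0.133).

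Vldlr, a lipoprotein receptor gene that ATF4 raises under ER stress, fell furthest of the 32 members. In 6694c2 KOB it stood at 4.74, 3.31, 4.55 and 5.80 TPM against 20.2, 20.5, 17.7 and 18.6 TPM in WT, a log2 fold change of -1.87 ± 0.16 (adjusted p = 3.79e-08), while KOA stood at 18.97 to 23.96 TPM. In 6419c5 KOB it stood at 2.79, 3.60 and 4.44 TPM against 6.47, 9.80 and 11.5 TPM in WT (-1.14 ± 0.19, adjusted p = 0.0001), and KOA at 9.78, 6.79 and 7.54 TPM overlapped WT. The mean KO effect of 6419c5, -0.65 ± 0.16, was -0.18 (adjusted p = 0.602) without the 4 libraries of high macrophage markers, which leaves WT library 1 alone in that group, and the KOB value was then -0.71.

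**Figure D2:**
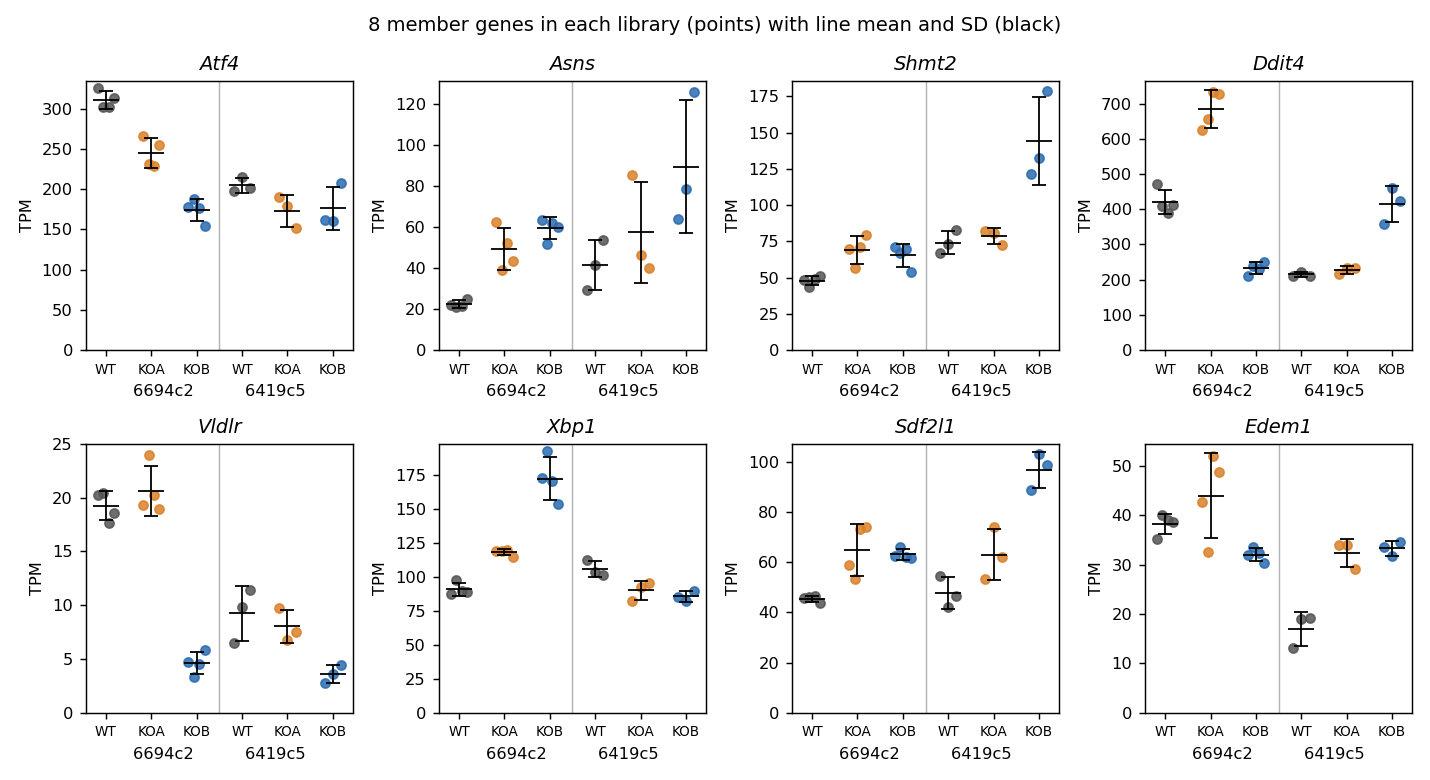
Points are single libraries in TPM, with black marks for the line mean and its SD, for 8 members in the 3 lines of each clone (4 libraries per line in 6694c2, 3 in 6419c5); axes start at 0. Xbp1 is higher in the KO lines of 6694c2 and lower in those of 6419c5, and Edem1 is lowest in 6419c5 WT.

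Of the sensor and its factor, Xbp1 changed in opposite directions in the clones. Xbp1 (chr11:5520641-5525993) stood at 87.1, 97.8, 89.4 and 88.6 TPM in 6694c2 WT, 119, 119, 119 and 115 TPM in KOA and 172, 192, 170.3 and 153 TPM in KOB. The lines did not overlap, and the log2 fold changes were 0.38 ± 0.07 (adjusted p = 0.000542) and 0.91 ± 0.07 (adjusted p = 4.81e-09). In 6419c5 it stood at 112, 103 and 101 TPM in WT, 81.9, 92.2 and 95.4 TPM in KOA and 84.8, 81.9 and 89.6 TPM in KOB. Every KO library lay below every WT library, with log2 fold changes of -0.23 ± 0.08 (adjusted p = 0.0286, lost at 0.115 without WT 1 and at 0.145 without KOA 1) and -0.30 ± 0.08 (adjusted p = 0.00427). These are gene-level values, and the spliced and unspliced forms of Xbp1 mRNA are not told apart by them.

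Ern1, the sensor IRE1, rose in 6419c5 KOB, at 32.2, 32.5 and 30.5 TPM against 10.4, 19.3 and 23.95 TPM in WT (0.87 ± 0.22, adjusted p = 0.00406). KOA stood at 25.8, 28.0 and 22.4 TPM and was not called (0.55 ± 0.22, adjusted p = 0.0655). The KO effect of 6419c5, 0.71 ± 0.19, was 0.38 without WT 1 (adjusted p = 0.0745), and with the 4 libraries of high macrophage markers left out it was 1.33 (adjusted p = 0.000808). Without WT 1 the KOB value was 0.54 (adjusted p = 0.0259). KOA was called without those 4 libraries (1.13, adjusted p = 0.00637) and without WT 3 (0.79, adjusted p = 0.0121). In 6694c2, Ern1 libraries of KOA, 36.0, 27.2, 49.8 and 46.2 TPM, spread on either side of WT, 33.6 to 35.4 TPM, and KOB stood at 21.9 to 28.5 TPM, below every WT library, with -0.39 ± 0.19 (adjusted p = 0.0991; 0.0166 under median-of-ratios scaling).

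Of the 4 chaperone genes, Hspa5 and Hsp90b1 were called in a KO line and Calr and Hyou1 were not. Hspa5, the master ER chaperone BiP, stood at 518, 555, 554 and 545 TPM in 6694c2 WT and fell to 414, 406.5, 407 and 344 TPM in KOB (-0.47 ± 0.08, adjusted p = 7.15e-05), while KOA stood at 472 to 557 TPM. In 6419c5 KOA it stood at 494, 421 and 411 TPM against 529, 573 and 588.5 TPM in WT (-0.35 ± 0.09, adjusted p = 0.00576; -0.23 and adjusted p = 0.293 without the 4 libraries of high macrophage markers). In 6419c5 KOB, Hspa5 stood at 463, 556 and 524 TPM and was not called (-0.13, adjusted p = 0.244). Median-of-ratios scaling (-0.26, adjusted p = 0.00773) and quantile normalization (-0.25, adjusted p = 0.0178) called it lower there. Its KO effect in 6419c5 was -0.24 (adjusted p = 0.0183), lost in 2 of 21 fits without a single library and 2 of 12 other settings. Hsp90b1, the ER form of HSP90, rose in 6694c2 KOA, at 397, 358, 458 and 409 TPM against 271, 299, 310.4 and 308 TPM in WT (0.44 ± 0.08, adjusted p = 0.000604). It also rose in 6419c5 KOB, at 477, 449 and 434.5 TPM against 330.1, 387 and 367 TPM (0.33 ± 0.09, adjusted p = 0.00753). That 6419c5 KOB call was lost under quantile normalization (0.18, adjusted p = 0.0779). Hspa5 and Hsp90b1, both with an ERSE match, went opposite ways in the mean KO effect of 6694c2 (-0.26 ± 0.07 and 0.28 ± 0.07). Of the 6694c2 lines, Hspa5 was called only in KOB and Hsp90b1 only in KOA under TPM scaling. Hsp90b1 in KOB was 0.12 (adjusted p = 0.217), and it was called higher there under quantile normalization (0.22, adjusted p = 0.015). Calr, a glycoprotein chaperone, and Hyou1, a nucleotide exchange factor for BiP, stood at 529 to 683 TPM and 60.6 to 90.9 TPM over the 12 libraries of 6694c2. Under median-of-ratios scaling Calr was called lower there (KO effect -0.20, adjusted p = 0.00464). Beside these, the cytosolic heat shock gene Hspa1a, not a member, stood at 13.7 to 34.5 TPM in 6694c2 KOB against 313 to 363 TPM in WT. Its part in these results was not tested.

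Among BiP's partners, Sdf2l1, a luminal protein that works with BiP's co-chaperones, was the ER gene that rose in all 4 KO lines, where the comparisons share WT. It stood at 45.7, 46.2, 46.3 and 43.7 TPM in 6694c2 WT, 58.8, 53.2, 73.4 and 74.0 TPM in KOA and 62.6, 66.1, 62.0 and 61.6 TPM in KOB. In 6419c5 it stood at 54.6, 42.2 and 46.5 TPM in WT, 53.3, 73.8 and 62.0 TPM in KOA and 88.8, 103 and 98.7 TPM in KOB. The log2 fold changes were 0.49 ± 0.11, 0.46 ± 0.11, 0.39 ± 0.12 and 1.01 ± 0.12 in that order, with adjusted p of 0.00318, 0.00153, 0.0223 and 4.64e-06. The value of 6419c5 KOA was 0.07 (adjusted p = 0.812) without the 4 libraries of high macrophage markers, 0.31 without WT 2 (adjusted p = 0.103), 0.37 without WT 3 (adjusted p = 0.0603), 0.27 without KOA 2 (adjusted p = 0.128) and 0.39 without KOA 3 (adjusted p = 0.0502). Sdf2l1 in 6694c2 KOA was 0.29 without its libraries 3 and 4 (adjusted p = 0.0849).

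Among the other partners, Dnajb9, a BiP co-chaperone that represses IRE1, fell in 6694c2 KOB, at 23.0, 22.9, 25.95 and 28.7 TPM against 37.3, 32.8, 30.1 and 33.7 TPM (-0.40 ± 0.11, adjusted p = 0.00749). Dnajc3, which restrains the eIF2 kinase PERK, rose there by less, 32.6 to 39.0 TPM against 28.2 to 31.95 TPM (0.28 ± 0.10, adjusted p = 0.0238). This call was lost when WT 1 or 4 or KOB 1, 2 or 3 was left out (0.25 to 0.27, adjusted p from 0.0532 to 0.0694). Pdia4 and Pdia6, disulfide isomerases, were called in no KO comparison with WT under TPM scaling with all libraries. In 6694c2 KOB both were called lower under median-of-ratios scaling (-0.26, adjusted p = 0.00508, and -0.25, adjusted p = 0.00526). The Pdia4 KO effect of 6419c5 was called lower under that scaling (-0.22, adjusted p = 0.0209) and quantile normalization (-0.27, adjusted p = 0.00939). That of Pdia6 was called lower under quantile normalization (-0.16, adjusted p = 0.0305). Without KOA library 2, Pdia4 was called higher in 6694c2 KOA (0.26, adjusted p = 0.0348). Pdia4 stood at 145 to 243 TPM over the 12 libraries of 6694c2 and 131 to 163 TPM over the 9 of 6419c5, and Pdia6 at 229 to 338 TPM and 216 to 260 TPM. Pdia6 overlaps Atp6v1c2 in the annotation.

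Of the secreted or luminal genes, Manf, an ER stress-induced survival factor, fell in 6694c2 KOB, at 89.1, 86.8, 88.5 and 77.9 TPM against 99.8 to 113 TPM in WT (-0.29 ± 0.07, adjusted p = 0.00185). In 6419c5 its KO effect of 0.20 ± 0.07 (adjusted p = 0.0259) was lost without WT 2 (adjusted p = 0.057) or WT 3 (0.13, adjusted p = 0.197), and under median-of-ratios scaling (0.11, adjusted p = 0.228). Creld2, a secreted disulfide-linked ER protein, was called lower in 6694c2 KOB (-0.32 ± 0.11, adjusted p = 0.0181) and higher in 6419c5 KOB (0.32 ± 0.12, adjusted p = 0.0425). The first call was lost without KOB 4 (adjusted p = 0.0706) or WT 4 (adjusted p = 0.0511) and the second when 6419c5 WT 2 or 3 or KOB 2 or 3, or 6694c2 WT 2 or 3 or KOB 3, was left out (0.26 to 0.34, adjusted p from 0.0502 to 0.154).

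Of the ER-associated degradation genes, Edem1 and Herpud1 were called higher in both KO lines of 6419c5. Edem1, which directs misfolded glycoproteins to disposal (chr6:108824045-108859356), stood at 13.1, 18.9 and 19.1 TPM in 6419c5 WT, 33.97, 34.01 and 29.0 TPM in KOA and 33.6, 31.7 and 34.5 TPM in KOB. All 6 KO libraries lay above all 3 WT libraries, with log2 fold changes of 0.90 ± 0.14 (adjusted p = 9.76e-05) and 0.95 ± 0.14 (adjusted p = 4.21e-05). In 6694c2 it stood at 35.3 to 40.1 TPM in WT, 32.5 to 52.0 TPM in KOA and 30.3 to 33.5 TPM in KOB, the last below every WT library, and neither line was called. Under median-of-ratios scaling and quantile normalization KOB was called lower (-0.33, adjusted p = 0.00697, and -0.29, adjusted p = 0.02). Without KOA library 2 both calls were made, KOA higher (0.31, adjusted p = 0.0385) and KOB lower (adjusted p = 0.0442). Herpud1, which organises the degradation complex, stood at 109, 123 and 81.6 TPM in 6419c5 WT, 133, 127 and 137 TPM in KOA and 161, 203 and 205 TPM in KOB, the last a log2 fold change of 0.86 ± 0.13 (adjusted p = 3.35e-05). Its KOA value of 0.35 ± 0.13 (adjusted p = 0.0413) was 0.18 without WT 3 (adjusted p = 0.256). Leaving out WT 1, KOA 1, 2 or 3, or 6694c2 WT 2 also ended that call (0.33 to 0.39, adjusted p from 0.0502 to 0.113). So did median-of-ratios scaling (0.30, adjusted p = 0.119) and quantile normalization (0.25, adjusted p = 0.164). In 6694c2 KOB, Herpud1 was 110.0 to 129 TPM against 84.1 to 103.5 TPM in WT (0.35 ± 0.11, adjusted p = 0.0127). That call was lost without WT 3 (adjusted p = 0.0509) and under median-of-ratios scaling (0.27, adjusted p = 0.0791).

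Sel1l, the membrane adaptor of that complex, rose in 6694c2 KOB, at 38.3, 39.3, 37.4 and 34.6 TPM against 30.9, 30.1, 27.7 and 30.4 TPM (0.32 ± 0.09, adjusted p = 0.00579). In 6419c5 KOA it rose from 20.6, 26.8 and 24.3 TPM to 30.4, 29.8 and 28.4 TPM (0.30 ± 0.10, adjusted p = 0.03), a call lost without WT 1 (0.20, adjusted p = 0.159), WT 3 (0.0511), KOA 1 (0.0835) or KOA 2 (0.0702). KOB was not called there (0.18 ± 0.10, adjusted p = 0.168). The mean KO effect of 6419c5, 0.24 (adjusted p = 0.0363), lost its call without WT 1 or 3, KOA 1 or 2, or KOB 1 or 2 (0.14 to 0.26, adjusted p from 0.0547 to 0.247), and under quantile normalization (0.14, adjusted p = 0.0785).

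**Figure D3:**
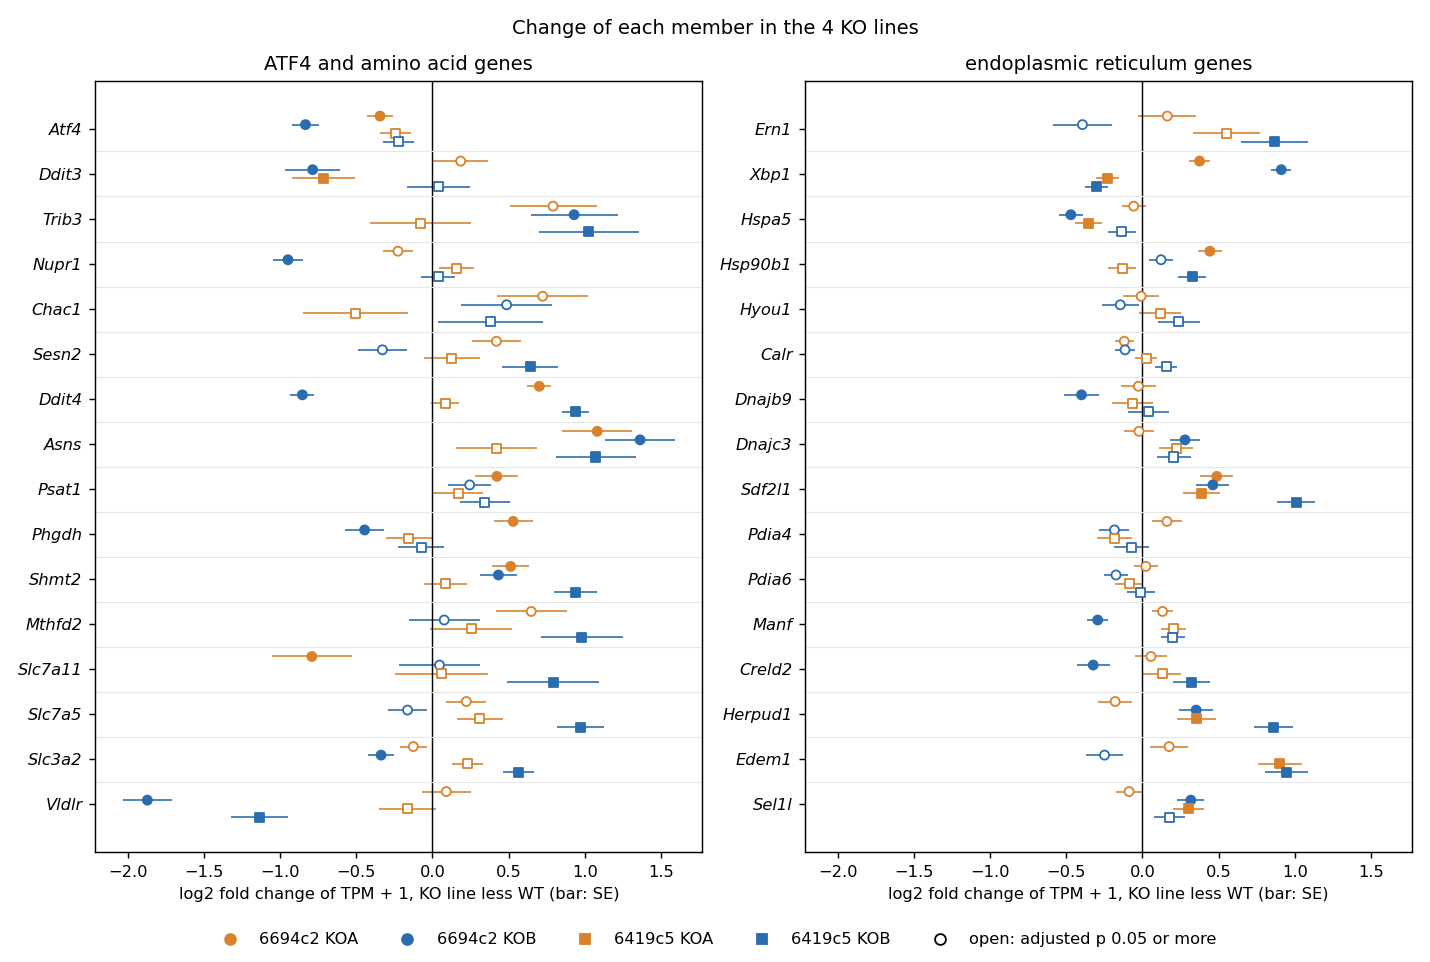
Log2 fold changes of TPM + 1 against the WT of the clone, with SE bars, for the 32 members in 6694c2 (circles) and 6419c5 (squares), KOA in orange and KOB in blue; filled symbols have an adjusted p under 0.05. The filled symbols of Vldlr lie furthest to the left and those of Asns, Trib3 and Sdf2l1 among the furthest right.

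The KO effect differed between the clones for 10 of 32 members, 1 higher in 6694c2 and 9 lower, beside 13% and 15.6% of all genes. Xbp1 was the higher one, by 0.91 ± 0.09 (adjusted p = 8.4e-07). The 9 were Atf4, Nupr1, Ddit4, Slc7a5 and Slc3a2 of the ATF4 list and Ern1, Manf, Herpud1 and Edem1 of the ER list. The largest was Edem1, -0.96 ± 0.16 (adjusted p = 0.000276). Edem1 WT levels also differed, at 17.0 TPM in 6419c5 and 38.3 TPM in 6694c2, while the KO means ran from 32.04 to 44.0 TPM over the 4 lines. With the line as a random effect no difference was called among the members, beside 39 of all 14337 genes (0.272%). In that fit 3 members had an unadjusted p under 0.05 (9.38%, against 7.94% of all genes). Of the 10, Ddit4, Edem1, Nupr1, Slc3a2 and Xbp1 kept their call when any single library was left out and under each other setting of the fixed-effect fit. Ern1 (0.0815) and Slc7a5 (0.0525) lost it without 6419c5 WT 1, and Herpud1 (0.0516) without WT 3. Atf4 lost it without 6694c2 WT 1 or 4 or 6419c5 WT 1 or 3 (-0.33 to -0.35, adjusted p from 0.0504 to 0.0675). Manf lost it without 6694c2 WT 3 or 4 or 6419c5 WT 3 (-0.21 to -0.28, adjusted p from 0.0523 to 0.109). Atf4 also lost it under quantile normalization (-0.20, adjusted p = 0.188) and with a replicate block on library number (0.0627). Manf lost it under quantile normalization (-0.19, adjusted p = 0.111) and without 6694c2 KOA libraries 1 and 2 (0.0511). Without the 2 libraries highest in the small RNA locus Mir6236, Atf4 (0.0682), Herpud1 (0.059) and Manf (0.114) lost it. Without the 4 libraries of high macrophage markers the differences were -0.40, -0.45 and -0.16 in that order.

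**Figure D4:**
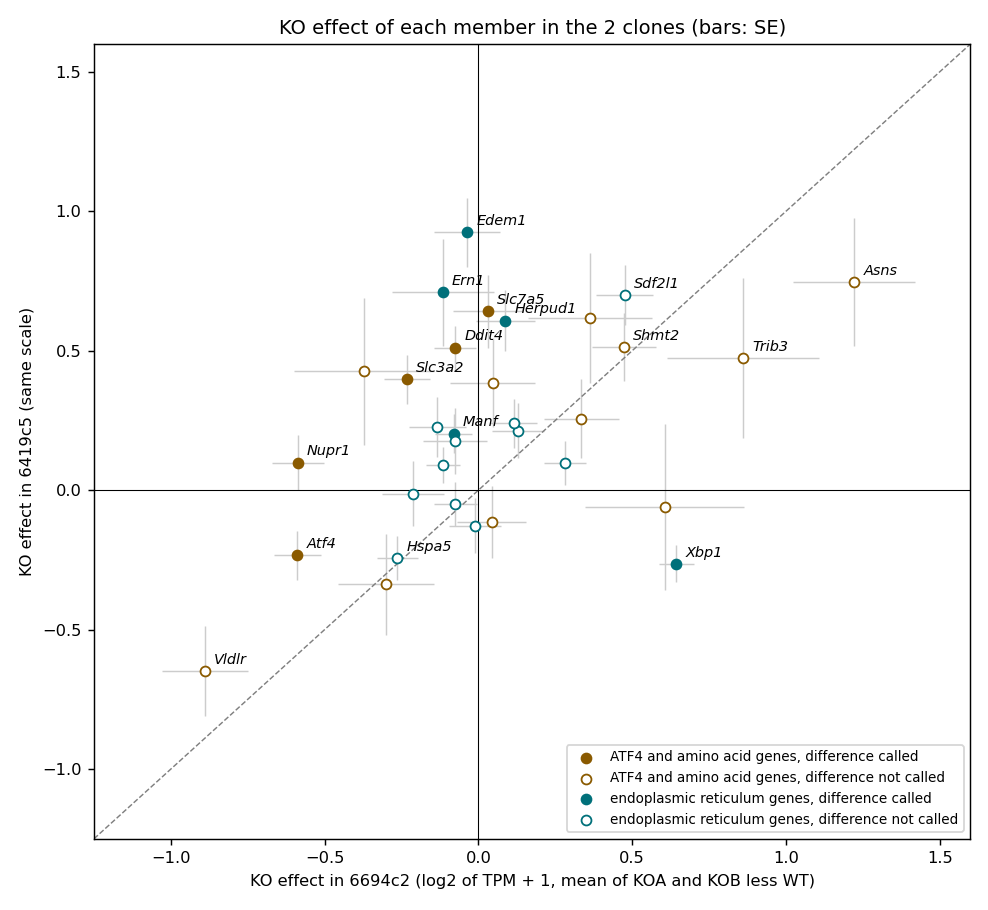
KO effect of each member in 6694c2 (horizontal) and 6419c5 (vertical), as log2 of TPM + 1, average of the 2 KO lines minus WT, with SE bars; the dashed line marks equal effects, and filled points differ between clones at an adjusted p under 0.05. Xbp1 lies to the lower right, at 0.64 and -0.26, and Edem1 at the top, at -0.04 and 0.92.

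The KO lines of a clone also differed from each other. KOA less KOB in 6694c2 gave 16 members higher and 5 lower, beside 22.9% and 23.6% of all genes. Besides Ddit4 (1.55 ± 0.08) and Vldlr (1.96 ± 0.16), Phgdh differed by 0.98 ± 0.13 and Ddit3 by 0.97 ± 0.18. In 6419c5, 1 member was higher in KOA (Vldlr, 0.97 ± 0.19) and 9 lower, beside 4.76% and 12.7%, with Ddit4 at -0.86 ± 0.09 and Shmt2 at -0.85 ± 0.14. The count was 2 and 6 under median-of-ratios scaling, beside 1431 and 1417 of all 14337 genes, and 6 members in all without KOB 3.

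Libraries of a line also differed. In 6694c2 KOA, 13 of 16 ER genes were lower in libraries 1 and 2 than in both 3 and 4, and Herpud1 was higher. In the ATF4 list 6 were lower and 3 higher (Ddit3, Trib3 and Slc7a5). Of all 14337 genes tested, 45.1% were lower and 16.3% higher in that way. Hspa1a stood at 113 and 65.2 TPM in libraries 1 and 2 and at 416 and 433 TPM in 3 and 4, and the epithelial gene Epcam at 53.0 and 10.8 TPM against 1.07 and 0.86 TPM. Library 4 of 6694c2 KOB held the lowest value of its line for 15 of 16 ER genes, beside 61.9% of all genes, and it also held 145023 TPM of Mir6236, a small RNA locus listed at 22665 to 91141 TPM in the other libraries. Among 6419c5 libraries, WT 1 was lowest in 14 of 16 ATF4-list genes, WT 3 highest in 12, KOB 3 highest in 15 and KOB 1 lowest in 15. The shares of all genes in those positions were 50.5%, 41.3%, 22.3% and 26.4%. Beyond leaving out libraries singly, the KOA pairs and the 2 libraries of highest Mir6236, their part in the KO results was not tested.

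The parental lines also differed. WT of 6694c2 less WT of 6419c5 gave 12 members higher and 8 lower, beside 21.5% and 32% of all genes, and 11 in all without the 4 libraries of high macrophage markers, where 6419c5 WT is 1 library. Phgdh, at 105 TPM in 6694c2 and 315 TPM in 6419c5, was the furthest apart (-1.58 ± 0.14, adjusted p = 4.47e-08), with Asns (-0.82 ± 0.25), Psat1 (-0.67 ± 0.15) and Shmt2 (-0.61 ± 0.13) also lower. Asns was -0.62 without 6419c5 WT 3 (adjusted p = 0.0665), and Asns, Psat1 and Shmt2 each lost their call without the 4 libraries of high macrophage markers, with adjusted p of 0.494, 0.133 and 0.127. Edem1 (1.14 ± 0.13), Vldlr (1.01 ± 0.18), Ern1 (0.98 ± 0.21) and Ddit4 (0.97 ± 0.09) were higher in 6694c2.

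Other genes of both arms were counted from lists set beside the members. Of 44 tested genes of the integrated stress response, 13 rose and 6 fell in 6694c2 and 13 rose and 1 fell in 6419c5. Of 63 other ER genes, 14 rose and 7 fell in 6694c2 and 15 rose and 8 fell in 6419c5. Beside them stand the 23.9% of all genes that rose and 13.5% that fell in 6694c2, and the 26.5% and 15% in 6419c5. Stc2, a secreted glycoprotein, rose in 6419c5 from 9.02 TPM in WT to 31.7 TPM in KOA and 40.9 TPM in KOB, a KO effect of 1.90 ± 0.19 (adjusted p = 3.28e-07). Cbs, a transsulfuration enzyme, rose in both clones, by 0.96 ± 0.16 and 0.71 ± 0.18. Slc38a2, a neutral amino acid carrier, fell in 6694c2 (-0.75 ± 0.12, adjusted p = 8.59e-05), and Gars, glycyl-tRNA synthetase, rose in 6419c5 (0.63 ± 0.11). In the ER, P4hb, a disulfide isomerase, and Rpn1, of the glycosylation complex, rose in 6419c5 (0.57 ± 0.06 and 0.61 ± 0.08). Dnajc10, a reductase, fell there (-0.72 ± 0.11), and Selenok, a selenoprotein, fell in 6694c2 (-0.45 ± 0.05).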

How the data were processed

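The deposited values were gene-level TPM, made by the authors with Salmon on mm10, per the submitters' processing notes; version, annotation and strandedness are not given in the sources used here, and the depth is unknown. TPM were analysed as log2(TPM + 1) with R 4.3.3 and limma 3.58.1, statmod 1.5.0 and Python 3.11.15 (numpy 2.4.6, pandas 2.3.3, matplotlib 3.10.9). Genes at 1 TPM or more in 3 or more libraries (14337) entered 1 model with 6 line means over 21 libraries (15 residual degrees of freedom, eBayes with trend). P-values were adjusted by Benjamini-Hochberg within each of 10 comparisons, and called at an adjusted p under 0.05. The fit was tested on simulated data. Library columns were mapped to clone and genotype by name; the table numbers libraries where the titles letter them. The 32 members and the gene lists were chosen with earlier results of these data known, and all members are named. Of the other genes, 4 per list with the smallest p in either clone and a line mean of at least 2 TPM were named. Promoter stretches that overlap an annotated exon were left out. Alternatives were other pseudocounts, filters and scalings, a random line effect, the clone alone, a replicate block, and leaving out libraries.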

Additional observations from a re-analysis of the deposited data

Results flagged for a closer look

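Among 96 groups of 4 libraries (32 members in the 3 lines of 6694c2), 4 held a library far from the other three by Dixon's ratio, and chance gives about 5%. These were Chac1 in KOA library 1, at 9.23 TPM and highest of its line, and, in KOB library 4, the lowest values of Hspa5 (343.8 TPM), Calr (529.1 TPM) and Pdia6 (228.8 TPM). The 10 members whose KO effect differed between the clones by limma's test of the difference (log2, 6694c2 less 6419c5) were Xbp1 at 0.91, and, with a lower effect in 6694c2, Edem1 at -0.96, Ern1 at -0.82, Nupr1 at -0.69, Slc3a2 at -0.63, Slc7a5 at -0.61, Ddit4 at -0.59, Herpud1 at -0.52, Atf4 at -0.35 and Manf at -0.28.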

How the results depend on the processing

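No member result that was called in the main or an alternative setting changed sign between them. In 6419c5 KOA less WT, the 7 calls became 3 with only the clone's own libraries and 3 without the 4 libraries of high macrophage markers, and 4 to 10 when single libraries were left out, 4 being reached without WT 3 or KOA 2. In 6419c5 KOA less KOB, the 10 calls became 5 with the clone's own libraries and 6 to 15 with single libraries left out, 6 without KOB 3. In 6694c2 KOA less WT, the 10 calls became 6 without KOA libraries 3 and 4, and between the WT lines the 20 calls became 11 without the high macrophage libraries, which leaves 6419c5 WT with 1 library. With line as a random effect, the member calls of 6694c2, of 6419c5 and of their difference became 0, 0 and 0. The shares of all genes called were 0.907%, 4.11% and 0.272%. The smallest adjusted p of a member was 0.078 for Xbp1 in 6694c2, 0.0553 for Edem1 in 6419c5 and 0.137 for Xbp1 in the difference. The cause was not tested. A replicate block on library number gave 11 calls in place of 12 in 6694c2 and 14 in place of 16 in 6419c5. For pairing, each library was taken as its deviation from the line mean in log2(TPM + 1) over all genes tested. Between lines of a clone, these deviations correlated from -0.15 to 0.17 for libraries of the same number. The median in 6694c2 was -0.025 for the same number and -0.023 for other numbers. The median in 6419c5 was 0.053 over 9 pairs of the same number and -0.046 over 18 other pairs. So few pairs cannot settle whether the numbers mark pairing in 6419c5. A change of pseudocount to 0.1 or 5 left all 320 gene results (32 members, 10 comparisons) or 318 of them on their side of the threshold. Alternatives leaving out the KOA pairs and the macrophage-high libraries were chosen after seeing the data. TPM holds no depth, so counting error could not be given.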
